A study of Mus musculus with 18 samples.

Results

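Forkhead factors are transcription factors that share a winged-helix DNA-binding domain. The 8 genes described here were Foxq1, Foxf1, Foxf2, Foxc1, Foxc2, Foxo1, Foxo3 and Foxp1, which take part in vessel development or endothelial quiescence. They were measured by 19 probe sets whose annotation gave 1 gene symbol, among 36701 probe sets and 15964 such genes in all. The genes were chosen by name with the GFP-positive against GFP-negative values of these arrays already known. Their levels and differences are therefore given as a description, without a test.

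The GFP-positive cells were sorted as endothelium from the pooled retinas of homozygous Tie2-GFP transgenic FVB/N mice at postnatal day 8. The GFP-negative cells were the other cells of the same kind of retina, also from Tie2-GFP animals, so both populations carried the transgene. GFP was driven by the promoter of Tie2, the receptor encoded by Tek, which some macrophages also use. Amplified RNA of each population was hybridised to chips A, B and C of the Affymetrix MGU74v2 series with 3 arrays per population and chip, 18 arrays in all, and no label states whether the 3 arrays came from separate animals, so errors and p-values measure the spread between arrays, which may be technical. The array medians were 43.3 to 44.5 intensity units on chip A, 40.7 to 44.5 on chip B and 32.5 to 34.4 on chip C. The number of arrays limited the precision, and no detection call was used, so a value below these medians may be background. In sorted bulk cells, more RNA per cell and more cells that express a gene cannot be told apart.

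Of 12 endothelial marker genes, 9 were called higher in GFP-positive cells and none lower (limma, adjusted p under 0.05, and none lower at an unadjusted p under 0.05), and their summed intensity was 10500.0 to 14140.0 in GFP-positive against 2086 to 3050.0 in GFP-negative arrays. Of 11 pericyte and mural markers none was called in either direction (0 higher and 1 lower at an unadjusted p under 0.05), with sums of 346 to 436 in GFP-positive against 393 to 457 in GFP-negative arrays. Among 11 microglia and macrophage markers, C1qb and Laptm5 were called higher, and the sum was 519 to 1440.0 in GFP-positive against 444 to 477 in GFP-negative arrays. The photoreceptor list (6 measured, 3 called lower), the Müller glia and astrocyte list (8, 5 lower) and the list of other neurons (9, 1 higher and 2 lower) mostly lay below, and no marker gene was at 0. GFP-positive replicate 3 stood apart: its Spearman rank correlation with the other GFP-positive arrays was 0.911 to 0.929 over the 3 chips, whereas the other pairs within a population lay at 0.960 to 0.987. Single genes of several lists were high on that array. Csf1r, a macrophage receptor, read 929.8, beside 37.3 and 41.2 on the other GFP-positive arrays. Glul, a Müller glia enzyme, read 986 beside 136 and 156, and Rgs5, a pericyte gene, 102.8 beside 33.9 and 32.8. The GFP-negative arrays lay below these readings, at 94.3 to 112 for Csf1r, 117 to 142 for Glul and 53.9 to 71.4 for Rgs5. Other genes of these lists went both ways on GFP-positive replicate 3. Slc1a3 read 66.2 beside 32.6 and 34.1, but Sox2 read 21.7 beside 44.4 and 42.9, and Cspg4 49.4 beside 62.9 and 56.3. C1qb and Laptm5 were lowest there, and without Csf1r the other 10 microglia and macrophage markers summed to 526, 478 and 510.3 on GFP-positive replicates 1, 2 and 3, against 349, 365 and 339 on the GFP-negative arrays. In these sums C1qb averaged 61.4 against 28.9 and Laptm5 155 against 41.5. No other marker of the list was called, and its median log2 difference was 0.03. Without GFP-positive replicate 3, Csf1r was called lower (-1.13, adjusted p = 0.00108, limma). The part of these transcripts in the forkhead values was not tested, and each forkhead difference is also plotted without that array.

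**Figure D1:**
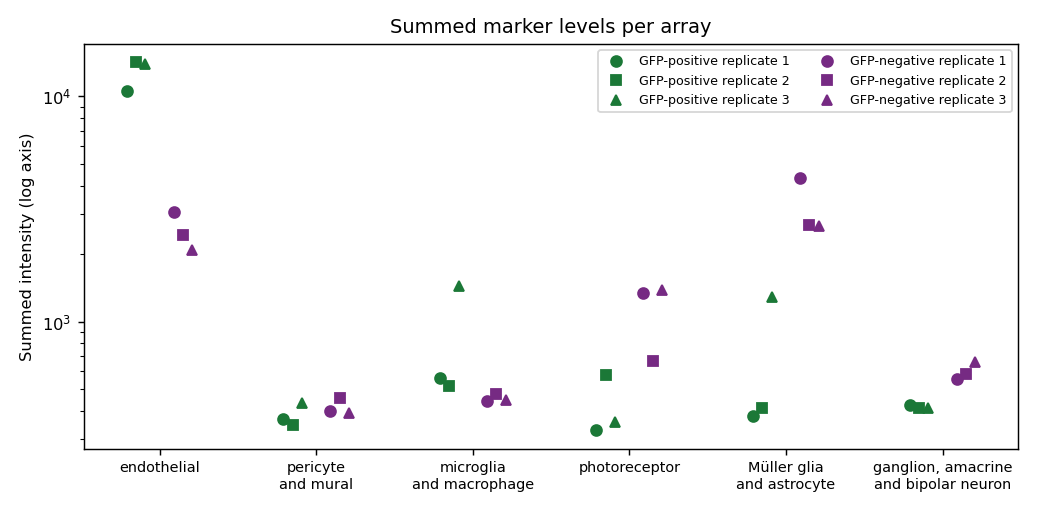
Summed intensity of each cell type marker list on each array (log axis), with GFP-positive arrays to the left of GFP-negative arrays and symbols for the replicate numbers. The endothelial sums of the GFP-positive arrays lie at 10500.0 to 14140.0, above all GFP-negative arrays, and the microglia and macrophage sum of 1440.0 on GFP-positive replicate 3 holds 929.8 from Csf1r alone.

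Forkhead proteins bind DNA through a core that reads TAAACA, or TGTTTA on the other strand, and FOX and ETS sites together mark many endothelial enhancers. FOXO proteins are kept out of the nucleus by AKT phosphorylation downstream of growth factor receptors, and in resting endothelium they restrain growth and metabolism. FOXC and FOXF factors pattern the embryonic vasculature and its mural cells, FOXQ1 is known as a marker of brain and retinal endothelium, and FOXP1 acts mainly as a repressor.

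Of the 19 forkhead probe sets, 13 had all GFP-positive arrays above all GFP-negative arrays, 1 had them all below, and 5 overlapped. Over all probe sets of the 3 chips, 21.3% lay entirely above and 16% entirely below. A log2 difference of at least 1, which is 2-fold, was reached upwards by 8 forkhead probe sets and downwards by 1, where the shares of all probe sets were 3.22% and 4.67%. The 8 belonged to Foxq1, Foxf2, Foxo1 and Foxp1, and the 1 to Foxo3. Since the genes were chosen with these values known, nothing is read from the counts. Each difference subtracts the GFP-negative mean from the GFP-positive mean of log2 values taken after adding 16 to the intensity, which understates the change of dim probe sets, and their SE comes from the limma fit of the whole chip. Calling a probe set the brightest of its gene ranks intensities only, not amounts of transcript.

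**Figure D2:**
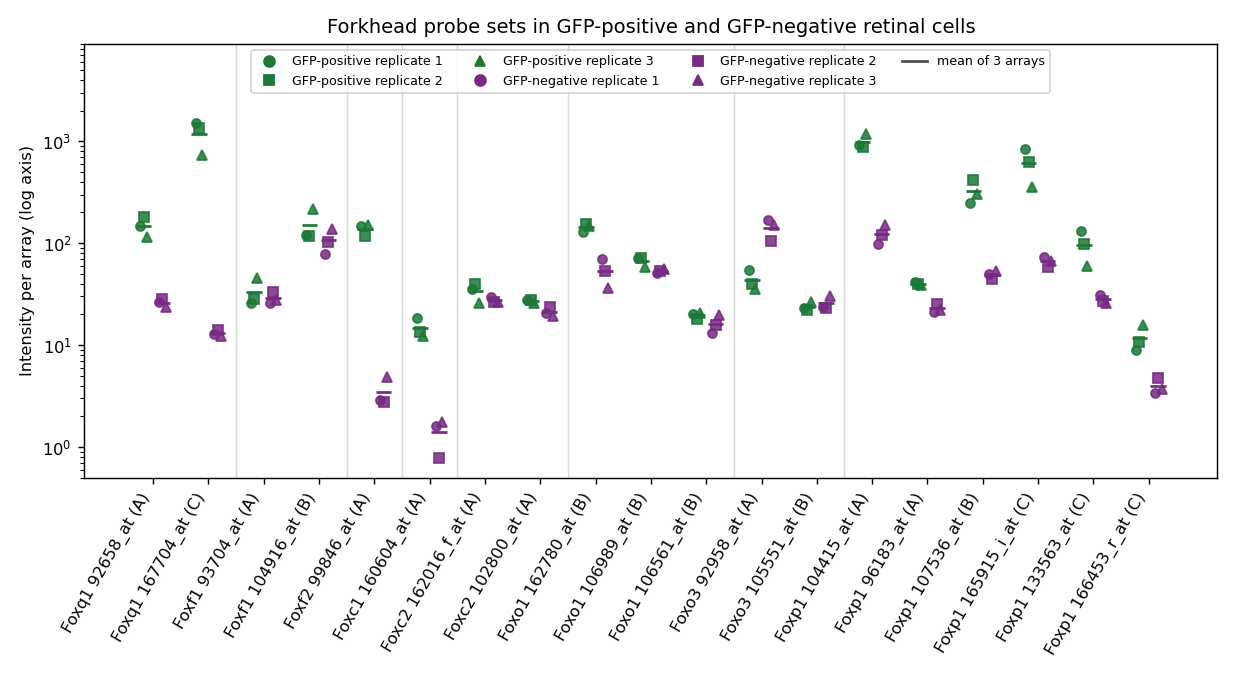
Intensity of each forkhead probe set on every array (log axis), with the chip in parentheses, GFP-positive arrays at the left of each pair, symbols for the replicate numbers and a line for the mean of 3 arrays. All GFP-positive arrays lie above the GFP-negative arrays for 13 of the 19 probe sets, below them for 92958_at of Foxo3, and overlap for 5.

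The promoters of Foxf2 and Foxp1 are shown because Foxf2 had the profile nearest to that of Foxp1 on chip A. That match was looked up with the constant added here before log2 and with no other. They are also shown because the differences of the 6 Foxp1 probe sets varied in size and the gene has 3 annotated starts. A link between the starts and these sizes was not tested. The motifs were chosen with the windows in view. The windows are those of RefSeq on GRCm38.p6 and run from 250 bases before to 50 bases after a start. Capitals mark TAAACA or its reverse complement TGTTTA, the forkhead core, and GGAAGT or its reverse complement ACTTCC, an ETS-type core.
Foxf2, chr13:31625566-31625865, plus strand: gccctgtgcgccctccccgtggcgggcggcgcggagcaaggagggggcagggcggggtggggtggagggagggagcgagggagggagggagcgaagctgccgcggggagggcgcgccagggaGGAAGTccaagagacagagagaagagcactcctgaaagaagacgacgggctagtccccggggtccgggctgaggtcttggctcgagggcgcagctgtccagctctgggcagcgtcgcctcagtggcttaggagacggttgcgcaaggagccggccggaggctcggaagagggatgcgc
Foxp1, chr6:99520944-99521243, minus strand: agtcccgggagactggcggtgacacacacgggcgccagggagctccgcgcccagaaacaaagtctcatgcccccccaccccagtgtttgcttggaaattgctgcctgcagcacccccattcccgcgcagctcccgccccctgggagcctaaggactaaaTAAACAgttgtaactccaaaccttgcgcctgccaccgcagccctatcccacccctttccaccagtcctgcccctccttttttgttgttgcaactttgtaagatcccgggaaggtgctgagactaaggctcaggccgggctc
Foxp1, chr6:99266466-99266765, minus strand: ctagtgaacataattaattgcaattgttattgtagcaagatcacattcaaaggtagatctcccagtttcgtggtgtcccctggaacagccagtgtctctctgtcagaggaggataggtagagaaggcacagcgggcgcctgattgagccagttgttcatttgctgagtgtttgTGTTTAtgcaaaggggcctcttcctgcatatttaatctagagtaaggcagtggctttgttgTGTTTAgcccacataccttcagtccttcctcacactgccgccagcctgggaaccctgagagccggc
Foxp1, chr6:99028249-99028548, minus strand: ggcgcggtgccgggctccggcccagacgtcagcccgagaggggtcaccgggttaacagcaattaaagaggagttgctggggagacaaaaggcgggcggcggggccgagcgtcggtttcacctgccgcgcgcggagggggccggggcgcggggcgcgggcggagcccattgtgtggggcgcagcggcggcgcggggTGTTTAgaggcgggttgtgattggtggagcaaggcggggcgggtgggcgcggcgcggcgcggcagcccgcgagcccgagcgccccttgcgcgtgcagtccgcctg

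Windows were matched for 5 of the 8 genes, Foxf2, Foxc1, Foxo1, Foxo3 and Foxp1, as 7 windows. The forkhead core stood in 3 of them, the 3 windows of Foxp1, and in 13.4% of all 32851 windows. The middle Foxp1 window held 2 matches and the others 1 each. The ETS-type core stood in 1 of the 7, that of Foxf2, and in 23.8% of all windows. The Foxf2 window was 71.3% G and C, and the Foxp1 windows, in the order printed, 60.3%, 48.7% and 75.3%, against a median of 52.7% over all windows. A match of these letters is a description and not a binding site.

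Foxq1, a factor whose mutation gives the satin coat in mice, had the largest difference of the 19 probe sets. On chip C its probe set 167704_at read 1498, 1338 and 731 in GFP-positive against 12.8, 14.0 and 12.2 in GFP-negative arrays. Every GFP-positive array was far above every GFP-negative array, and replicate 3 was the lowest of the GFP-positive ones. The means were 1189 ± 405 against 13.03 ± 0.915 (SD, n = 3 arrays each), a log2 difference of 5.31 (SE 0.26), or 5.62 (SE 0.08) without GFP-positive replicate 3. Tek, whose promoter drove the GFP, was also lowest on that GFP-positive array, with 240.4 beside 547 and 537 on replicates 1 and 2, whereas the endothelial gene Cdh5 was highest there, with 1843 beside 952 and 869.9.

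On chip A a second Foxq1 probe set, 92658_at, read 148, 180.4 and 115 in GFP-positive against 26.4, 28.2 and 23.7 in GFP-negative arrays. Here too the populations were apart and GFP-positive replicate 3 was the lowest of its population. The log2 difference was 1.94 (SE 0.15), which is smaller than that of 167704_at, so the probe sets shared the direction but not the size.

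The gene order of chromosome 13 places Foxq1, Foxf2 and Foxc1 next to each other with no other protein-coding gene between them in the RefSeq table, and Foxf1 and Foxc2 on chromosome 8 with only Mthfsd between them. Foxf2, a factor of mesenchyme and of brain vessels, was measured by 99846_at on chip A at 147, 118 and 149.5 in GFP-positive against 2.90, 2.77 and 4.81 in GFP-negative arrays. All GFP-negative values were close to the bottom of the scale. The means were 138 ± 17.5 against 3.49 ± 1.14 and the log2 difference was 2.98 (SE 0.11). It was 2.92 without GFP-positive replicate 3, and 4.97 and 1.58 with pseudocounts of 1 and 64, so the direction did not depend on the constant but the size did. Foxf2 is known from brain pericytes in mice, and a part of pericyte RNA in its value was not tested. None of the 11 pericyte and mural markers was called, and 1, Rgs5, was called lower without GFP-positive replicate 3. Pdgfrb, the defining receptor of pericytes, lay below the array medians and read 24.0, 22.0 and 33.7 in GFP-positive against 32.0, 37.9 and 28.8 in GFP-negative arrays. Acta2, Tagln, Myh11, Abcc9 and Anpep were also below the medians on every array, where a value may be background. Rgs5, Cspg4 and Kcnj8 averaged above the medians in both populations. Without GFP-positive replicate 3 the GFP-positive mean of Rgs5 was 33.3, below the medians, and those of Cspg4 and Kcnj8 were 59.6 and 59.2, still above. The absence of calls therefore does not settle how much pericyte RNA was present.

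Foxc1, a factor of vascular, periocular and mural development, was dim on 160604_at of chip A, where it read 18.5, 13.5 and 12.4 in GFP-positive against 1.61, 0.78 and 1.77 in GFP-negative arrays. The populations did not overlap, although all 6 values were below the array medians. The log2 difference was 0.82 (SE 0.09), and it was 2.73 with a pseudocount of 1 and 0.27 with 64.

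The chromosome 8 pair differed less. Foxf1, a factor of lung and visceral mesenchyme and of lung endothelium, read 26.1, 28.2 and 45.4 in GFP-positive against 25.8, 32.9 and 27.5 in GFP-negative arrays on 93704_at of chip A. On 104916_at of chip B it read 120.3, 118 and 214 in GFP-positive against 78.9, 103 and 139 in GFP-negative arrays. On both chips the populations overlapped and GFP-positive replicate 3 was the highest array. The log2 differences were 0.12 (SE 0.16) and 0.42 (SE 0.27), and -0.05 and 0.17 without that array.

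Foxc2, which acts in lymphatic valves and arterial specification, had 2 probe sets on chip A. The probe set 102800_at read 27.6, 27.6 and 25.8 in GFP-positive against 20.9, 23.4 and 19.1 in GFP-negative arrays, without overlap, with a log2 difference of 0.21 (SE 0.07). The probe set 162016_f_at, whose suffix marks probes that can match several members of a sequence family, read 35.2, 39.8 and 25.6 in GFP-positive against 29.9, 26.6 and 26.2 in GFP-negative arrays. GFP-positive replicate 3 was the lowest of all 6 arrays there, and the log2 difference was 0.18 (SE 0.12), or 0.30 (SE 0.08) without it. All of these Foxc2 values were below the array medians.

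Foxo1 and Foxo3 are FOXO factors with overlapping targets, and on 162780_at and 92958_at they lay in opposite directions. Foxo1, the main FOXO factor of endothelial growth control in mice, read 129.7, 154 and 149 in GFP-positive against 69.2, 53.6 and 36.7 in GFP-negative arrays on 162780_at of chip B. The arrays did not overlap, and the log2 difference was 1.24 (SE 0.18). The probe set 106989_at read 72.3, 71.6 and 58.2 in GFP-positive against 51.3, 52.8 and 55.2 in GFP-negative arrays, again without overlap (0.27, SE 0.10, or 0.35 without GFP-positive replicate 3). The third, 106561_at, read 20.0, 18.1 and 20.7 in GFP-positive against 13.1, 15.7 and 19.8 in GFP-negative arrays and overlapped (0.15, SE 0.11). The values of 106561_at lay below the array medians, where a value may be background. The 3 probe sets shared a sign, and only the first reached 2-fold.

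Foxo3, a FOXO factor best known from stress resistance and cell death, read 54.2, 39.5 and 35.5 in GFP-positive against 167, 104 and 150.4 in GFP-negative arrays on 92958_at of chip A. This was the 1 forkhead probe set with all GFP-positive arrays below all GFP-negative arrays. The means were 43.1 ± 9.87 against 140.5 ± 32.8 and the log2 difference was -1.40 (SE 0.20), which stayed between -1.58 and -1.27 when single arrays were left out. On chip B, 105551_at read 22.8, 22.1 and 26.7 in GFP-positive against 23.7, 23.1 and 30.03 in GFP-negative arrays and overlapped (-0.06, SE 0.10, or -0.11 without GFP-positive replicate 3). These values lay below the array medians, so the lower Foxo3 level rests on 92958_at.

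Foxp1 had 6 probe sets on the 3 chips, all with GFP-positive arrays above all GFP-negative arrays. On chip A, 104415_at read 912, 872 and 1169 in GFP-positive against 97.9, 119.9 and 149.8 in GFP-negative arrays. The means were 984 ± 161 against 122.5 ± 26.1, a log2 difference of 2.86 (SE 0.18). On chip B, 107536_at read 245, 421 and 303 in GFP-positive against 49.3, 44.3 and 53.4 in GFP-negative arrays (2.35, SE 0.19). Both differences were more than 2 on the log2 scale.

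On chip C, 165915_i_at read 846, 632 and 357 in GFP-positive against 73.2, 58.9 and 67.2 in GFP-negative arrays, a log2 difference of 2.85 (SE 0.30), or 3.18 without GFP-positive replicate 3. The probe set 133563_at read 133, 97.4 and 60.1 in GFP-positive against 31.2, 27.0 and 25.8 in GFP-negative arrays (1.31, SE 0.24, or 1.56 without that array). On both, GFP-positive replicate 3 was the lowest GFP-positive array, whereas on 104415_at it was the highest. The remaining 2 lay below the array medians. The probe set 96183_at read 41.8, 39.7 and 38.9 in GFP-positive against 21.2, 25.5 and 22.0 in GFP-negative arrays (0.53, SE 0.07), and 166453_r_at read 9.02, 10.7 and 15.6 against 3.42, 4.73 and 3.72 (0.47, SE 0.10). Foxp1 differences thus ran from 0.47 to 2.86 over probe sets of the same gene. The low end depended on the constant: with pseudocounts of 1 and 64, 166453_r_at was 1.34 and 0.16, and 96183_at 0.79 and 0.26. The direction was the same in each, and the files do not say which transcripts each probe set reads.

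**Figure D3:**
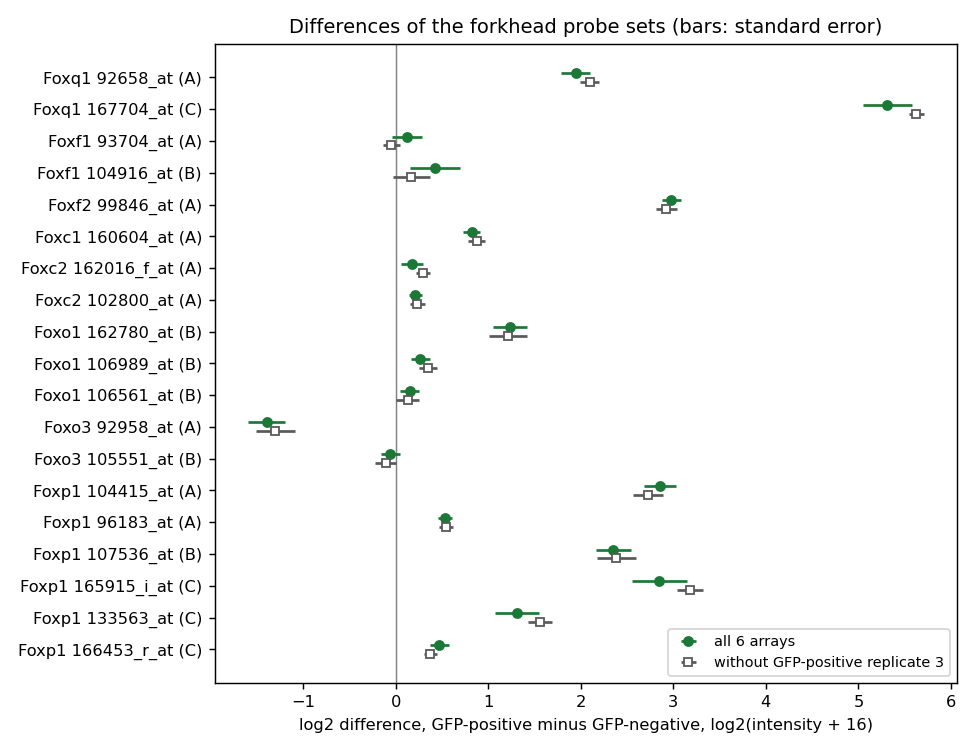
Log2 difference of each forkhead probe set, GFP-positive minus GFP-negative, with its standard error, from all 6 arrays of the chip (filled circles) and without GFP-positive replicate 3 (open squares). With all arrays the points run from -1.40 for Foxo3 to 5.31 for Foxq1. Without GFP-positive replicate 3 only 93704_at of Foxf1 changes sign, from 0.12 to -0.05. On 104916_at Foxf1 goes from 0.42 to 0.17, and on 162016_f_at Foxc2 goes from 0.18 to 0.30.

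The genes with the most similar profiles were looked up on the same chip for the brightest probe set of each gene with a difference of at least 1 in size, by the root-mean-square distance between log2 values centred on their mean over the 6 arrays. The 6 arrays of a profile share their populations, so the distance is a description. For Foxq1 on chip C, among 7717 probe sets with 1 symbol, the nearest genes were Sox17, an endothelial SOX factor, at 0.134 and Adgrl4, an endothelial adhesion receptor, at 0.166, and the next gene, F11r, was much farther at 0.787. For Foxf2 on chip A the nearest were Gimap1 at 0.131, Anxa2 at 0.147 and Tpm1 at 0.160. For Foxp1 they were Foxf2 itself at 0.165, Anxa2 at 0.244 and Trim25 at 0.247. The likeness of Foxf2 and Foxp1 holds for the main constant, where their log2 differences were 2.98 and 2.86. With a pseudocount of 1 these differences were 4.97 and 3.005, and with 64 they were 1.58 and 2.49. The distances were not tested with other constants. Foxo1 on chip B lay nearest to Selenom at 0.108, Arhgap31 at 0.113 and Uaca at 0.120. Foxo3 lay nearest to genes lower in GFP-positive cells, Zfp532 at 0.0932, Ezh2 at 0.102 and Actr6 at 0.106.

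The other forkhead genes served as the family around these 8. Of 36 listed, 26 had a probe set with 1 symbol, of which 2 passed limma's adjusted threshold of 0.05 upwards and 3 downwards in GFP-positive cells. That was 7.69% and 11.5% of them, beside 9.43% and 11.3% of all 15964 genes. Their median difference was -0.06 and that of all genes 0.04. Foxl2, known from the ovary and eyelid, read 184, 100.3 and 270.4 in GFP-positive against 30.02, 33.7 and 35.9 in GFP-negative arrays. It rose by 1.94 (SE 0.31, adjusted p = 0.00569, limma) and was the 1 gene of the list called in each fit that left out 1 array. Foxj3, a factor known from muscle and germ cells, read 900 in GFP-positive replicate 1, 1079 in replicate 2 and 653 in replicate 3, against 2534, 2028 and 2711 in GFP-negative arrays. It fell by 1.47 on the log2 scale (adjusted p = 0.00943, limma), but a second Foxj3 probe set on chip C, 134241_at, lay the other way at 0.49 and was not called (adjusted p = 0.203), and the first was not called without GFP-negative replicate 1 (adjusted p = 0.0515).

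The other calls were small. Foxo4, another FOXO gene, averaged 129.7 ± 6.40 in GFP-positive cells and 103.7 ± 4.20 in GFP-negative cells and rose by 0.28 (adjusted p = 0.0417, limma), and its probe set on chip B rose by 0.67 (adjusted p = 0.00179). Foxd1, which marks temporal retina, fell by 0.36 on the log2 scale, and Foxk2 fell by 0.27, with its other probe sets at -0.97 (adjusted p = 0.00191), -0.39 (adjusted p = 0.0593) and, on 92413_at, 0.02 (adjusted p = 0.918). Foxj2, the brightest that was not called, was 189.7 ± 38.8 against 251 ± 66.6. The chip A calls of Foxo4, Foxd1 and Foxk2 each held in 1 of the 6 fits that left out 1 array. Leaving out GFP-positive replicate 3 gave 5 lower, GFP-positive replicate 1 or 2 or GFP-negative replicate 2 or 3 gave 1, and GFP-negative replicate 1 gave 0. The higher count was 1 in all of these except the first, where it was 2.

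Kinases and cofactors that set FOXO activity were mostly not called. Of 32 measured FOXO regulators 1 rose and 5 fell, or 3.12% and 15.6%, beside 9.43% and 11.3% of all genes, with a median of -0.17. Pdpk1, the kinase PDK1 that activates AKT, read 54.2, 56.7 and 44.6 in GFP-positive against 164, 196 and 202 in GFP-negative arrays. It fell by 1.59 on the log2 scale (SE 0.11, adjusted p = 0.000487, limma) and was the 1 gene of the list called in each fit that left out 1 array. Igf1r, the IGF-1 receptor gene, fell by 1.15 (adjusted p = 0.0458), the PI3-kinase gene Pik3ca by 0.97 (adjusted p = 0.0303) and the JNK gene Mapk8 by 0.68 (adjusted p = 0.0426), calls that held in 1, 3 and 2 of the 6 fits that left out 1 array. The 14-3-3 gene Ywhaq, the brightest that was not called, read 1728 ± 165 against 1809 ± 268. Another 14-3-3 gene, Ywhag, was the remaining regulator that fell, by 0.66 (1243 ± 147 against 1969 ± 212, adjusted p = 0.0161, limma), a call that held in 4 of the 6 fits. Sgk1, a kinase that phosphorylates FOXO3 and is itself counted among the FOXO targets, rose to 769 ± 263 in GFP-positive cells, against 139 ± 98.1 in GFP-negative cells (2.48, adjusted p = 0.0192), and was not called without GFP-negative replicate 3 (adjusted p = 0.0786). Among the regulators, 7 were lower and 3 higher when GFP-positive replicate 3 was left out. Leaving out GFP-negative replicate 1 gave 1 lower, replicate 2 gave 3 lower, and replicate 3 gave 1 lower and 0 higher.

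Genes described as FOXO targets were called in both directions, in shares near those of all genes. The list was not split into targets that FOXO proteins activate or repress, so nothing is read from the directions about FOXO activity. Of 39 measured, 5 rose and 6 fell, or 12.8% and 15.4%, beside 9.43% and 11.3% of all genes, with a median of 0.05. Angpt2, the Tie2 ligand that FOXO1 activates in endothelium, read 73.1, 84.5 and 69.9 in GFP-positive against 27.6, 28.6 and 26.2 in GFP-negative arrays (1.08, SE 0.08, adjusted p = 0.000627, limma). Klf2, a flow-responsive endothelial factor, was 84.5 ± 16.9 against 25.0 ± 0.940 (1.28, adjusted p = 0.00153). Cdkn1a, the cell cycle inhibitor p21, read 141, 711 and 559 in GFP-positive against 65.2, 59.1 and 69.7 in GFP-negative arrays and rose by 2.32 (adjusted p = 0.0395), but its GFP-positive arrays were far apart and the call held in 1 of the 6 fits that left out 1 array.

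Among the FOXO targets that fell, Cited2, a transcriptional coregulator, fell by 2.34 on the log2 scale to 58.3 ± 20.5 in GFP-positive cells, against 370 ± 149 in GFP-negative cells (adjusted p = 0.00711, limma). Spry2, a growth factor signalling inhibitor, fell by 1.75 (adjusted p = 0.00126) and Bnip3, a mitophagy receptor, by 1.61 (adjusted p = 0.000502). Mxi1, a MYC antagonist, fell by 0.93 (adjusted p = 0.0487), a call that held only without GFP-positive replicate 3 among the fits that left out 1 array. Gabarapl1, an autophagy gene and the brightest that was not called, was 585 ± 290 against 373 ± 63.7, and it was called without GFP-positive replicate 1 (0.99, adjusted p = 0.0119). Leaving out GFP-positive replicate 1 gave 8 higher targets, replicate 2 of either population gave 3, and GFP-negative replicate 3 gave 2.

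Vascular genes tied to FOXC, FOXF or combined FOX and ETS sites were called more often in 1 direction. Of 19 measured, 8 rose and 1 fell, or 42.1% and 5.26%, with a median of 0.49, beside 9.43% and 11.3% of all genes. The list shares Cldn5, Cdh5, Tek and Kdr with the endothelial markers and is not independent of them. It was chosen with earlier results of these data known, and the cells were sorted by the promoter of Tek. Its share is therefore a description, and nothing is read from it about a link to forkhead factors. Cldn5, a tight junction gene, rose by 6.21 (adjusted p = 2.68e-05, limma), Cdh5, which encodes VE-cadherin, by 5.29 (adjusted p = 0.00019) and Tek by 4.15 (adjusted p = 0.000592). Flt4, which encodes VEGF receptor 3, read 70.1, 114 and 138 in GFP-positive against 18.9, 21.1 and 16.1 in GFP-negative arrays and rose by 1.79 (adjusted p = 0.00313). Prox1, a lymphatic factor that retinal neurons also use, fell by 0.52 (adjusted p = 0.014), and 0 were lower when GFP-positive replicate 2 or either of GFP-negative replicates 2 and 3 was left out, while 2 were lower when GFP-positive replicate 3 was. Kdr, the brightest that was not called, read 2235 ± 233 against 2245 ± 503.

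**Figure D4:**
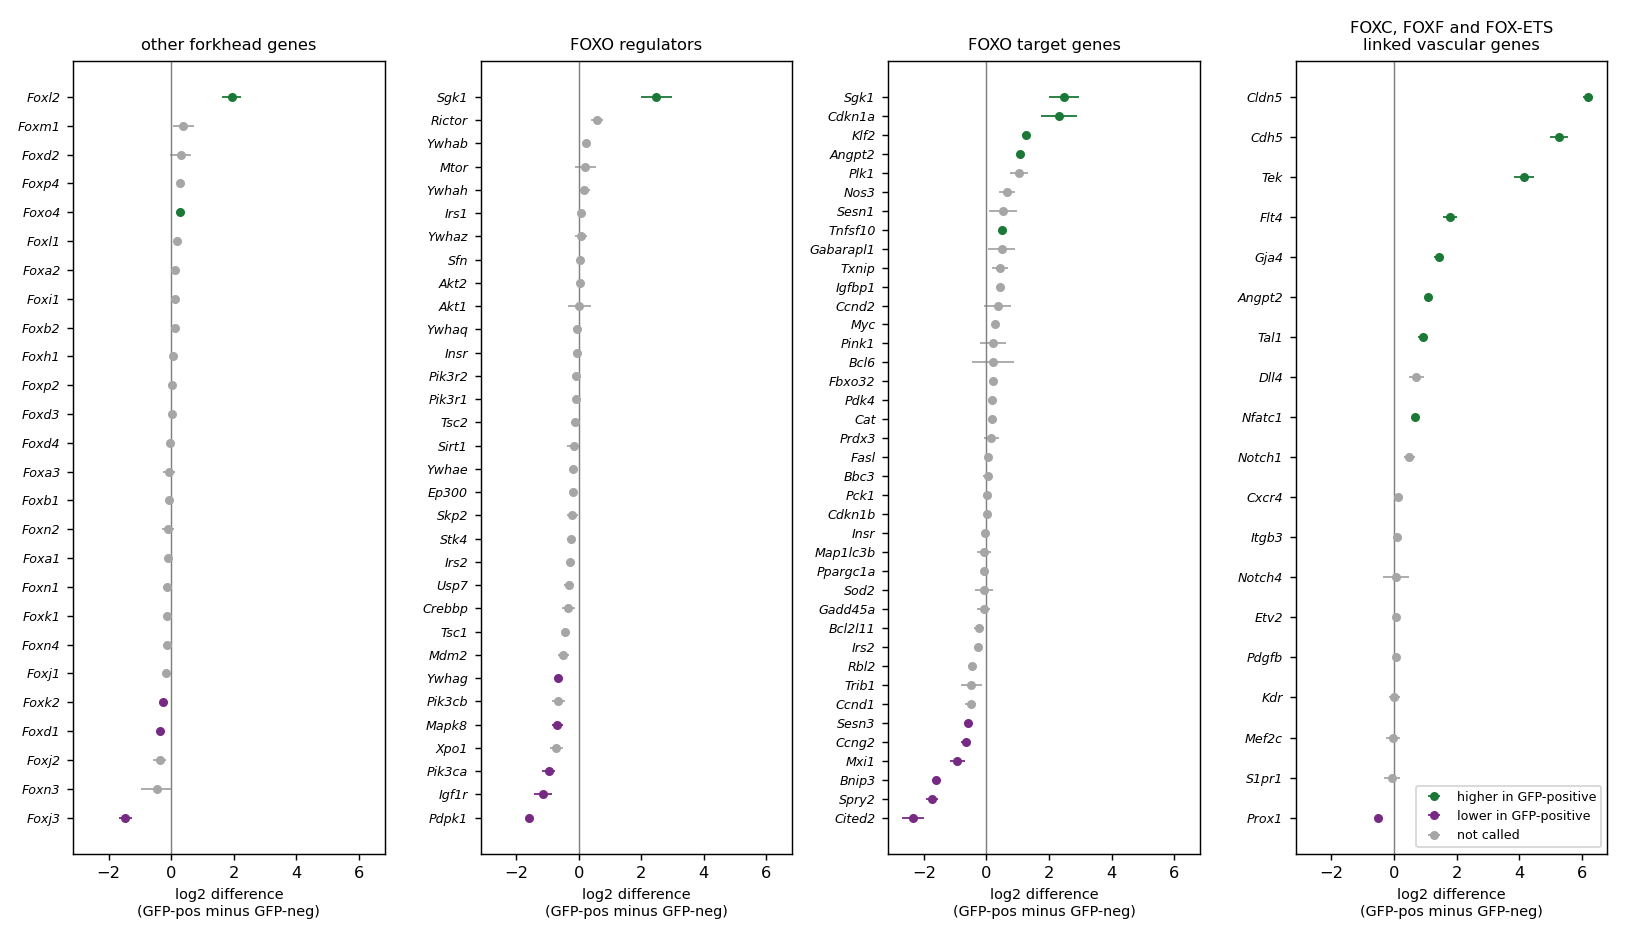
Log2 difference, GFP-positive minus GFP-negative, with its standard error for every measured gene of the 4 lists, coloured by whether it was called higher, lower or neither at an adjusted p under 0.05. Most points of the first 3 lists lie near 0, with Foxl2 at 1.94 and Foxj3 at -1.47 at the ends of the other forkhead genes, while the vascular list reaches 6.21 at Cldn5.

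The genes that flank the 8 forkhead genes were taken by position, the 3 nearest measured ones on each side. Of 32 such genes, 3 were called higher and 1 lower, or 9.38% and 3.12%, beside 9.43% and 11.3% of all genes, with a median of 0.11. The higher share was thus that of all genes. Beside the chromosome 13 group, Gmds, a GDP-mannose dehydratase gene, averaged 203 ± 47.2 in GFP-positive cells and 104 ± 20.5 in GFP-negative cells (0.86, adjusted p = 0.0222, limma), and the long non-coding 1700018A04Rik, which lies between Foxq1 and Foxf2, was 25.7 ± 3.32 against 13.9 ± 1.81 (0.48, adjusted p = 0.0189). On the other side of that group the nearest measured gene, 4930401O12Rik, was not called (0.46, adjusted p = 0.0668, limma), and was called higher without GFP-positive replicate 3 (0.57, adjusted p = 0.00445), and the next, Exoc2, was not called (-0.07). Snx3, a sorting nexin gene near Foxo3, rose by 1.51 (adjusted p = 0.000232), opposite in sign to Foxo3, and Setd7 near Foxo1 fell by 0.50 (adjusted p = 0.0117). Near Foxf1 and Foxc2 none of the 7 measured neighbours was called, and they ran from -0.77 for 1700018B08Rik to 0.28 for Mthfsd. Without GFP-positive replicate 3, 1700018B08Rik was called lower (-1.53, adjusted p = 0.00892, limma) and Mthfsd was -0.08. Cd164, also near Foxo3 and the brightest not called, read 717 ± 196 against 424 ± 75.7. Of the 4 calls, that of Snx3 held in each fit that left out 1 array. Leaving out GFP-positive replicate 3 gave 7 higher and 2 lower neighbours, GFP-positive replicate 2 gave 1 higher and 0 lower, and GFP-negative replicate 3 gave 1 higher.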

How the data were processed

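The series holds 18 arrays of Affymetrix MGU74v2 chips A, B and C, hybridised with amplified RNA of sorted retinal cells, per the labels' protocols. The values are the authors' deposited linear intensities per probe set, with their summarisation, background correction and scaling all not given in the sources used here. They were kept as deposited and transformed to log2 of intensity plus 16. Each chip was fitted alone over all its probe sets by lmFit and two-sided eBayes of limma 3.58.1, run under R 4.3.3, without a replicate block, with Benjamini-Hochberg adjustment over the probe sets of the chip and a threshold of 0.05. The fit was checked on simulated data.

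The platform annotation named a probe set where it gave 1 symbol (10833, 10581 and 7717 on chips A, B and C). Of these, 10817, 10550 and 7677 matched the RefSeq gene table. A listed gene was measured by its brightest such probe set on the first chip that held it. The members and lists were chosen with earlier results of these data known. Named list genes are up to 4 called per direction by size and the brightest not called, and other genes named were chosen after their values were seen. The alternatives were pseudocounts of 1 and 64, quantile normalization, median-centred arrays, bright probe sets only, eBayes with trend and robust settings, a block for replicate numbers, adjustment over 3 chips, another probe set per gene and each array left out.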

Additional observations from a re-analysis of the deposited data

How the results depend on the processing

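The count of forkhead probe sets at least 2-fold higher (8) was the same in each fit that left out 1 array and lay between 6 and 10 under the other settings, and the count at least 2-fold lower (1) became 0 with a pseudocount of 64. Across arrays left out, the counts lay between 1 and 2 higher and 0 and 5 lower for the other forkhead genes, 0 and 3 higher and 1 and 7 lower for the FOXO regulators, 2 and 8 higher and 4 and 6 lower for the FOXO targets, 7 and 9 higher and 0 and 2 lower for the vascular list, and 1 and 7 higher and 0 and 2 lower for the neighbouring genes. The other forkhead genes had 1 higher with a pseudocount of 1, median-centred arrays, bright probe sets only or the trended fit, and 1 lower among the 12 bright ones. With a pseudocount of 64 there were 3 FOXO regulators lower and 3 FOXO targets higher. Of the neighbouring genes, 0 were lower in the trended fit and 2 when the brightest probe set of all chips was used.

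Same-numbered arrays of the populations did not deviate together throughout (r from -0.368 to 0.292, above 0.1 in 3 of 9 pairs), so the numbers were not treated as pairs. The 3 were the replicate 1 pairs, at 0.292, 0.255 and 0.175 on chips A, B and C, and the pairs of replicates 2 and 3 were negative. The highest values were those of GFP-positive replicate 3 with GFP-negative replicate 2, at 0.379, 0.411 and 0.445. With a replicate block there were 1 higher and 0 lower among the other forkhead genes, 3 FOXO regulators lower, 3 FOXO targets higher, 0 vascular genes lower and 2 neighbouring genes lower, and the calls over all probe sets on chips A, B and C numbered 1698, 2099 and 641 with the block and 2278, 2596 and 1101 without it. Signs changed for uncalled genes only: Kdr was -0.29 after quantile normalization and -0.06, -0.003019, -0.02 and -0.13 when GFP-positive replicates 2 and 3 and GFP-negative replicates 2 and 3 were left out in turn. With single arrays left out it ranged from -0.1307 to 0.1803, and Ywhaq ranged from -0.1359 to 0.05692, the last when GFP-negative replicate 1 was left out. Fits with fewer arrays rest on less data, but their SEs were not always larger. Without GFP-positive replicate 3 the SE went from 0.26 to 0.08 for 167704_at of Foxq1 and from 0.31 to 0.08 for Tek. For 162780_at of Foxo1 it went from 0.18 to 0.20. What moved these counts was not tested.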
